A study of Rattus norvegicus with 6 samples.

Results

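The nuclear-encoded subunits of the mitochondrial respiratory chain and of ATP synthase were followed in rat liver after treatment with PCN. The set was made of the array probes whose transcript accession carries a rat symbol of the form Ndufa, Ndufb, Ndufc, Ndufs or Ndufv with a number, Sdha to Sdhd, or a symbol that begins with Uqcr, Cox4 to Cox8 or Atp5. The rule reads symbols and no measured value. It gave 92 of the 30367 different probes and 75 of the 15170 genes with a symbol on the array. By symbol, 31 of the genes belong to complex I, 4 to complex II, 8 to complex III, 17 to complex IV and 15 to complex V, counting the inhibitor, isoforms and copies that carry such symbols. The samples were livers of male Wistar Hannover rats, bought at 4 weeks of age and quarantined for 1 week. A control group of 3 rats received the vehicle, corn oil, and a group of 3 rats received PCN at 100 mg/kg per day, both by oral gavage on 7 days. PCN, pregnenolone-16α-carbonitrile, is a steroid made for laboratory use and the classical ligand of the pregnane X receptor in rodents, which senses drugs and other foreign compounds in hepatocytes. From each of the 6 samples, 100 ng of total RNA was made into Cy3-labelled cRNA and read on its own 1-colour Agilent array. The samples share no genetic change, and 1 dose and 1 time were measured.

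Complexes I and II pass electrons from NADH and succinate to ubiquinone, complex III passes them to cytochrome c, and complex IV, cytochrome c oxidase, hands them to oxygen. Complexes I, III and IV pump protons as they do so, and complex V, the ATP synthase, uses the returning protons to make ATP. Most subunits are encoded in the nucleus, while several core subunits of complexes I, III, IV and V are encoded in mitochondrial DNA. Liver mitochondria supply ATP for the synthesis of glucose and urea, and some subunits of complex IV exist as isoforms of muscle, lung or testis. Nuclear respiratory factor 1 (NRF1), the ETS factor GABP, estrogen-related receptors and YY1 are known regulators of nuclear genes of this pathway. The subunits encoded in mitochondrial DNA were not analysed here, since 0 of 26 symbols listed for them matched a named probe.

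Promoters were taken from RefSeq on the assembly GRCr8 as the 250 bases before each gene's start. They are shown because members of 1 complex are often discussed as a unit under shared factors. Of 73 tested members, 63 had an entry, among them 5 of the 8 that passed the test below. The first 4 promoters belong to members that changed. That of Cox5a, which also changed, is not printed. The last belongs to Ndufa6, the brightest member with a match to the NRF1 motif. Lines run 5′ to 3′ on the strand of the gene, and capitals mark matches on either strand to TGCGCA (NRF1), CGGAAG (GABP and other ETS factors), AAGGTCA (estrogen-related receptor half-site), AAGATGG (YY1) or GGGCGG (GC box).
Uqcrq, chr10:38089979-38090228, minus strand: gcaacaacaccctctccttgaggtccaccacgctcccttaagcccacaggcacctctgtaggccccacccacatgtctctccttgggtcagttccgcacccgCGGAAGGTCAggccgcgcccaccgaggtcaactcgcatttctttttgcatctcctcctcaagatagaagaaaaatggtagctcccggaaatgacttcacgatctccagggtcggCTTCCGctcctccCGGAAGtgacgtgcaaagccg
Cox7c, chr2:18579171-18579420, minus strand: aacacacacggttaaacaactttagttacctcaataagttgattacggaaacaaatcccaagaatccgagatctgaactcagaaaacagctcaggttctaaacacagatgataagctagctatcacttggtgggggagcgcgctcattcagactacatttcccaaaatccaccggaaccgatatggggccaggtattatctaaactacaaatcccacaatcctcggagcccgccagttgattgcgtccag
Cox6b2, chr1:78122621-78122870, plus strand: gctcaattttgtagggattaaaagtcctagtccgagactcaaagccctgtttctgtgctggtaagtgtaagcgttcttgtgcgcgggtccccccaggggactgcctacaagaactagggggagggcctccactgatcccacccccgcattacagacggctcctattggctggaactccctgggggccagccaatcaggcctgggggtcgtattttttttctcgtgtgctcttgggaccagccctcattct
Atp5if1, chr5:150026678-150026927, minus strand: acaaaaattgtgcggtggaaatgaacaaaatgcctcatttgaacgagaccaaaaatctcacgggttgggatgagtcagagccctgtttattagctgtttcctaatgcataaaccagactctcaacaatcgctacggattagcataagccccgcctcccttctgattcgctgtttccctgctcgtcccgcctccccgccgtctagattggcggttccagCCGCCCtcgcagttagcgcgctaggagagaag
Ndufa6, chr7:115750318-115750567, minus strand: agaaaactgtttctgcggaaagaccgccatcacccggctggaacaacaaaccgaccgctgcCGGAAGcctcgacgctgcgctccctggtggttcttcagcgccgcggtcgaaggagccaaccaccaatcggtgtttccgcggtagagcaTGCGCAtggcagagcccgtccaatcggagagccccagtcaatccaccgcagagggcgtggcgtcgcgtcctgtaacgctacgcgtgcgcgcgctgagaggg
A match is a string of letters and does not show that a factor binds. In Uqcrq a CGGAAG and the AAGGTCA share letters, so that their capitals form 1 run. The promoter of Uqcrq held 3 matches to CGGAAG, that of Atp5if1 held 1 GC box, and those of Cox7c and Cox6b2 held none of the 5 motifs. The promoter of Cox5a held 1 match to CGGAAG and 2 GC boxes. The NRF1 motif was present in 28.6% of the 63 member promoters, against 6.14% of all 33469 promoters in the table. The 33469 were not limited to genes tested on the array, so the sets compared differ in more than membership. The ETS motif was present in 49.2% of the member promoters, against 13.9% of all promoters. The other shares were 9.52% against 3.99% for the receptor half-site, 6.35% against 4.62% for YY1 and 36.5% against 30.5% for the GC box. Of the 5 changed members with an entry, 0 held the NRF1 motif and 2 held the ETS motif, against 18 and 29 of the 58 that did not pass the test.

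Signals are given on the log2 scale as the processed signal of the probe relative to the 75th percentile of its array, so 0 is the signal of a probe at that percentile. A log2 fold change is the PCN mean minus the control mean, with its standard error (SE) from 3 arrays a group. A gene is said to have risen or fallen where limma's moderated test, adjusted over 16389 tested genes and features by Benjamini-Hochberg, gave an adjusted p under 0.05. The 75th percentile signal was 633 to 758 on the control arrays and 488 to 627 on the PCN arrays. The share of spots well above background ran from 65.5% to 68.9% in controls and from 61.6% to 65.8% with PCN. Each group had a slide of its own, so the effects of slide and treatment cannot be told apart. Arrays of 1 group correlated at 0.990 to 0.993 over the tested genes, and arrays of different groups at 0.975 to 0.981. The defining markers of hepatocytes were present, with 10 of 10 well above background on all arrays and 0 at an unadjusted p under 0.05.

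Most subunits did not pass the test for a difference between the groups. Of the 73 tested members, 7 fell with PCN and 1 rose, which is 11% of them, against 19.9% of all tested genes. The share that fell was 9.59%, against a background of 15.5%, and for the rise the background was 4.37%. Among the 6246 genes with a mean signal above the 75th percentile, to which 72 of the 73 members belong, 14.1% changed and 7.89% fell. The members' shares thus lie below or near these backgrounds. The median log2 fold change over the members was 0.01, over all tested genes -0.06 and over the brighter genes 0.03. Scaling to the array median moved the median of all genes to 0.14 and that of the members to 0.22, and scaling to spike-in controls moved them to -0.34 and -0.27. Each of these scalings shifts all genes by the same amount, and the median of every complex was above 0 under the first and below 0 under the second. With the first, 13 members passed as higher and 5 as lower, and with the second 0 as higher and 19 as lower. The members' median lay 0.07 above that of all genes under these scalings and the main one, but 0.05 below it under quantile normalization and 0.04 below it under cyclic loess or another background correction. The control and PCN values did not overlap for 20 members, or 27.4%, with PCN below in 12 and above in 8, against 41.4% of all tested genes. The 95% interval lay within a 2-fold change in either direction for 68 of the 73 members, including each of the 65 that did not pass. For 57 of them it lay within 0.5 on the log2 scale. All 73 were well above background on all 6 arrays, so none entered the test through 1 group alone, and no spot of a member was saturated. The isoforms Cox6a2 and Cox8c were not well above background on any array and were not tested.

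**Figure D1:**
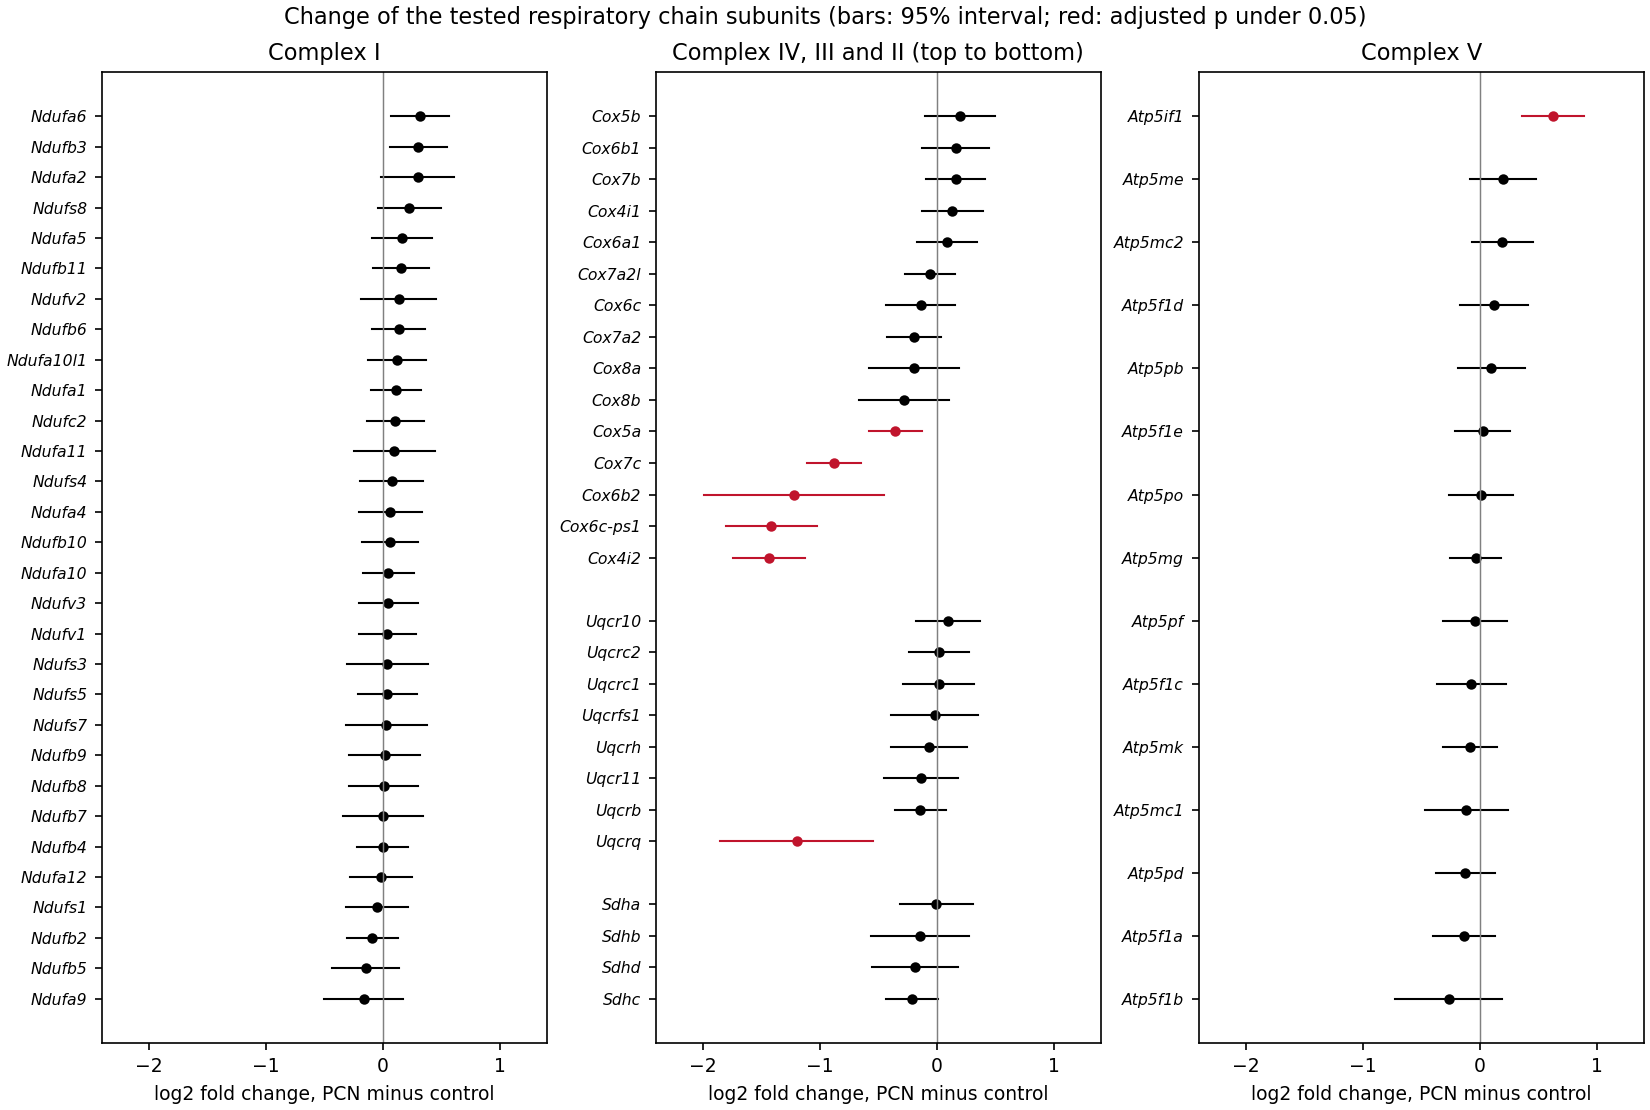
Log2 fold change (PCN minus control) of 72 of the 73 tested subunits, by complex, with 95% intervals from 3 arrays a group; red marks an adjusted p under 0.05. The points of complexes I and V lie close to 0 apart from Atp5if1 (0.63), and 5 of the 7 members that fell belong to complex IV.

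Complex I, the NADH dehydrogenase, had a median log2 fold change of 0.05 over its 31 subunits. Ndufv1, Ndufv2, Ndufs1, Ndufs3, Ndufs7 and Ndufs8, which carry its flavin and iron-sulphur clusters or help to build its matrix arm, did not pass the test. Ndufv1, which binds NADH and its flavin, had a log2 signal of 4.83, 4.78 and 4.85 in controls and 4.91, 4.72 and 4.94 with PCN (log2 fold change 0.04, SE 0.10). Ndufv2, which carries an iron-sulphur cluster beside it, gave a log2 fold change of 0.13 (SE 0.13). Ndufs1, the largest iron-sulphur subunit, gave -0.05 (SE 0.11) and Ndufs3, a core subunit of the matrix arm, 0.04 (SE 0.14). Ndufs7 and Ndufs8, the iron-sulphur subunits nearest to ubiquinone, gave 0.03 (SE 0.14) and 0.23 (SE 0.11). The groups overlapped for each of these 6 genes.

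None of the 22 accessory subunits of complex I passed limma's test, 2 had an unadjusted p under 0.05, and their median log2 fold change was 0.05. The largest difference among them was in Ndufa6, an accessory subunit that holds an acyl carrier protein. Its log2 signal was 5.97, 6.07 and 6.12 in controls and 6.38, 6.26 and 6.47 with PCN. These groups did not overlap, but the adjusted p was 0.077 for a log2 fold change of 0.32 (SE 0.10). Ndufv3, a flavoprotein-arm subunit, gave 0.05 (SE 0.11), and its 3 probes ranged from -0.26 to 0.19. Ndufa4, named as a complex I subunit and since placed with complex IV, gave 0.06 (SE 0.11).

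Complex II, succinate dehydrogenase, links the tricarboxylic acid cycle to the chain, and none of its 4 subunits passed limma's test, with 0 at an unadjusted p under 0.05. Sdha, the flavoprotein that oxidises succinate, had a log2 signal of 3.75, 3.67 and 3.84 in controls and 3.87, 3.52 and 3.85 with PCN. Its groups overlapped, with a log2 fold change of -0.00 (SE 0.13, 95% interval -0.31 to 0.30). Sdhb, the iron-sulphur subunit, gave -0.14 (SE 0.18). The membrane anchors Sdhc and Sdhd gave -0.21 (SE 0.09, adjusted p = 0.16) and -0.19 (SE 0.15, adjusted p = 0.43). Sdhc alone of the 4 had groups that did not overlap, at 3.33, 3.19 and 3.29 in controls and 3.02, 3.099 and 3.04 with PCN. The median over the 4 genes was -0.17. It was -0.0009 without PCN array 2, 0.04 under scaling to the array median and -0.44 under scaling to spike-in controls, where Sdhc and Sdhd passed as lower (-0.49 and -0.46).

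Complex III, the cytochrome bc1 complex, had 1 subunit of 8 that fell, and its median of -0.04 became 0.07 without PCN array 2 and 0.02 without control array 3. That subunit was Uqcrq, a small subunit near the ubiquinone binding site, whose promoter held the 3 ETS matches above. Its log2 signal was 2.23, 1.70 and 1.46 in controls and 1.10, 0.42 and 0.28 with PCN. The groups did not overlap, and the spread within each group was wide. Uqcrq fell by 1.20 (SE 0.27, 2.29-fold, adjusted p = 0.026). The call was kept in 13 of 18 alternatives and in 2 of the 6 that left out 1 array. It was lost without control array 1 (adjusted p = 0.072), control array 2 (0.063), PCN array 2 (0.076) or PCN array 3 (0.070). The other small subunits Uqcr10 and Uqcr11 gave log2 fold changes of 0.09 (SE 0.11) and -0.13 (SE 0.13). The core proteins Uqcrc1 and Uqcrc2 gave 0.01 (SE 0.13) and 0.02 (SE 0.11), and the Rieske iron-sulphur protein Uqcrfs1 gave -0.02 (SE 0.16). These last 3, among the main nuclear-encoded parts of the complex, were picked for their role after their values were seen. Cytochrome c1 (Cyc1), another such part, lies outside the symbol rule and matched no named probe.

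Complex IV held most of the members that changed, with 5 of 15 tested genes lower, none higher and a median log2 fold change of -0.19. The share that fell was 33.3%, against 15.5% of all tested genes and 7.89% of the brighter genes. Of these 5, Cox7c and Cox5a are subunits of the enzyme in most tissues, Cox4i2 and Cox6b2 are isoforms known from other tissues, and Cox6c-ps1 is annotated as a pseudogene. Without tissue isoforms and the pseudogene, 2 of 11 fell, or 18.2% against the same backgrounds, and the median was -0.06. The median of the 15 genes was -0.07 without PCN array 2, 0.01 under scaling to the array median and -0.47 under scaling to spike-in controls, where Cox6c, Cox7a2 and Cox8a also passed as lower.

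Cox7c, a small membrane subunit, had a log2 signal of 2.76, 2.89 and 2.85 in controls and 1.93, 2.05 and 1.89 with PCN. The values were tight within each group and far apart between groups. It fell by 0.88 (SE 0.10, 1.84-fold, adjusted p = 0.0023), and the call was kept in all 18 alternatives (adjusted p up to 0.017). Cox5a, a subunit on the matrix side, had 5.20, 5.10 and 5.27 in controls and 4.86, 4.82 and 4.83 with PCN. It fell by 0.36 (SE 0.10, 1.28-fold, adjusted p = 0.043). The groups did not overlap, but the call was lost in 9 of 18 alternatives, among them each of the 6 that left out 1 array (adjusted p from 0.072 to 0.14 there).

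Cox4i2 is an isoform of subunit 4 known from lung and from cells short of oxygen. Its log2 signal was 2.71, 2.71 and 2.67 in controls and 1.38, 1.02 and 1.39 with PCN. It fell by 1.43 (SE 0.13, 2.70-fold, adjusted p = 0.0011), and the call was kept in all 18 alternatives (adjusted p up to 0.011). Its partner Cox4i1, the form of most tissues, stood at 6.56, 6.71 and 6.73 in controls and at 6.84, 6.67 and 6.89 with PCN. Its groups overlapped (log2 fold change 0.13, SE 0.11, 95% interval -0.13 to 0.39).

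Cox6b2 is the isoform of subunit 6b known from testis. Its log2 signal was 3.81, 4.98 and 3.95 in controls and 3.18, 2.70 and 3.20 with PCN. The groups did not overlap, and control array 2 stood above the other controls. It fell by 1.22 (SE 0.32, 2.33-fold, adjusted p = 0.041). The call was kept in 11 of 18 alternatives but, of those that left out 1 array, only without control array 2; without the other arrays in turn the adjusted p was 0.050 to 0.11, above the threshold in each case. Its partner Cox6b1 gave log2 fold changes of 0.16 (SE 0.12), -0.15 (SE 0.12) and -0.35 (SE 0.11) on 3 probes, none past the test. The control mean of Cox6b2 was 4.25, above the 4.08 of the brightest Cox6b1 probe. Whether the Cox6b2 probe reads only this isoform was not tested.

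Cox6c-ps1 fell on both of its probes. The brighter one had a log2 signal of 1.59, 1.29 and 1.53 in controls and -0.01, -0.18 and 0.35 with PCN, a fall of 1.41 (SE 0.16, 2.67-fold, adjusted p = 0.0025). The other probe fell by 1.62 (SE 0.20) and was well above background on 2 of the 3 PCN arrays. The call on the brighter probe was kept in all 18 alternatives (adjusted p up to 0.015). The parent gene Cox6c gave -0.14 (SE 0.12). How far probes for a pseudogene also bind its parent's RNA was not tested, so the gene behind this signal is uncertain.

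Some markers of muscle and connective tissue also differed between the groups, and their part in the result was not tested. Of 11 muscle markers on the array 5 were tested and 3 of these did not pass. Of the tested muscle markers 40% passed and of the 11 stellate cell and fibroblast markers 27.3%, against 19.9% of all tested genes. Ckm, the creatine kinase of muscle, fell by 2.44 (SE 0.37, adjusted p = 0.0071) and Acta1, skeletal actin, by 1.84 (SE 0.16, adjusted p = 0.00099). With normexp background correction these falls were 1.21 (adjusted p = 0.015) and 0.41 (adjusted p = 0.047). The summed signal of the 5, in units of the array 75th percentile, was 3.53 to 4.59 in controls and 2.65 to 3.30 with PCN. The defining muscle genes Tnnt3, Myh4, Myh6, Myh7, Atp2a1 and Ckmt2 were not tested, being too dim. Of 11 stellate cell and fibroblast markers, Lrat fell by 1.33 (SE 0.22) and Acta2 by 0.74 (SE 0.16), while Rgs5 rose by 0.96 (SE 0.17) and 8 did not pass. The call on Acta2 was lost in 8 of 18 alternatives, among them 4 of the 6 that left out 1 array. The summed signal of the 11 was 21.7 to 23.3 in controls and 19.4 to 23.3 with PCN. The muscle isoform Cox8b stood far below the array 75th percentile, at -3.73, -3.72 and -4.17 in controls and -3.97, -4.22 and -4.28 with PCN. Its groups overlapped (log2 fold change -0.28, SE 0.16), and Cox6a2, the other muscle isoform, was not well above background. In RNA of whole liver, fewer cells of a type and less RNA per cell cannot be told apart.

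The remaining subunits of complex IV that have an isoform or relative did not pass the test. Cox6a1, the form of most tissues, gave 0.08 (SE 0.11), Cox8a -0.20 (SE 0.16) and Cox7b 0.16 (SE 0.10). Cox7a2 gave -0.19 (SE 0.10) on its brighter probe, with groups that did not overlap, and 0.13 (SE 0.14) on the other. Cox7a2l, which joins complexes III and IV into supercomplexes, gave -0.06 (SE 0.09).

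Complex V, the ATP synthase, had 1 member of 15 that rose and none that fell, and its median of -0.03 became 0.03 without PCN array 2 and 0.01 without control array 3. The rise was in Atp5if1, the inhibitory factor that binds the enzyme and stops it from hydrolysing ATP. Its log2 signal was 2.64, 2.60 and 2.60 in controls and 3.14, 3.42 and 3.15 with PCN. The control arrays lay within a narrow band, and all PCN values stood above it, with PCN array 2 the highest. Atp5if1 rose by 0.63 (SE 0.11, 1.54-fold, adjusted p = 0.012). The call was kept in 17 of 18 alternatives and lost under scaling to spike-in controls (log2 fold change 0.35, adjusted p = 0.18).

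The subunits that make up the enzyme itself did not pass the test. The log2 fold changes of the 5 subunits of the catalytic F1 part lay between -0.27 and 0.12. Among them Atp5f1a, the alpha subunit, stood at 7.13, 7.04 and 7.22 in controls and 7.07, 6.85 and 7.06 with PCN (-0.14, SE 0.11). The 4 peripheral stalk subunits, which hold F1 still against the rotor, lay between -0.13 and 0.10. Atp5me, a membrane subunit at the dimer interface, gave 0.20 (SE 0.12). The log2 fold changes of the 14 genes that did not pass lay between -0.27 and 0.20.

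**Figure D2:**
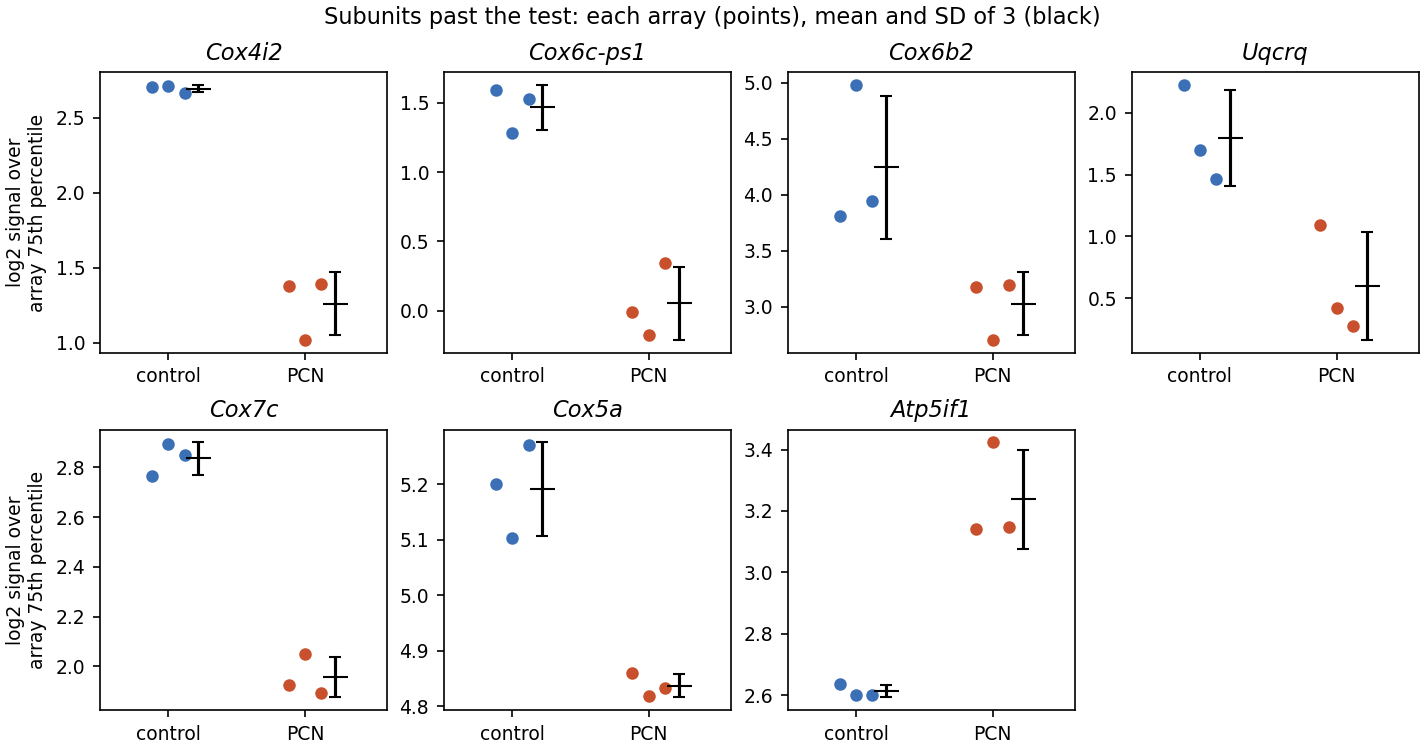
Log2 signal relative to the array 75th percentile for 7 of the 8 members with an adjusted p under 0.05: 1 point for each array, with the mean and SD of 3 arrays in black. Each panel has its own axis range; the groups do not overlap in any panel, control array 2 stands apart in Cox6b2 (4.98), and only Atp5if1 is higher with PCN.

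Where a gene had several tested probes, these gave the same call. Only 1 of the 8 members that passed, Cox6c-ps1, had a second tested probe. Each of the others rests on 1 probe. Of 89 tested member probes 9 passed in the fit over probes, against a background of 18.9%, namely 1 for each of 7 genes and 2 for Cox6c-ps1. For each of the 13 members with several tested probes, all probes had the same call, which was none except for Cox6c-ps1. No gene had probes called in opposite directions. The widest spread between probes of a gene was in Cox6b1, at 0.51 on the log2 scale. One of the probes of Ndufs4 was also too dim to test.

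The PCN arrays differed among themselves. PCN array 2 was the lowest of the 3 in 59 of 73 members. The median of the members relative to the control mean was -0.03, -0.03 and 0.07 on the control arrays and 0.07, -0.14 and 0.08 on the PCN arrays. In complexes II, III and IV PCN array 2 stood at -0.36, -0.24 and -0.34, and in complex I at -0.02. Over all tested genes the PCN arrays stood at -0.04, -0.10 and -0.06, so array 2 was the lowest there as well, by less. Without PCN array 2, 4 members fell and 1 rose, among them Cox4i2, Cox6c-ps1, Cox7c and Atp5if1.

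**Figure D3:**
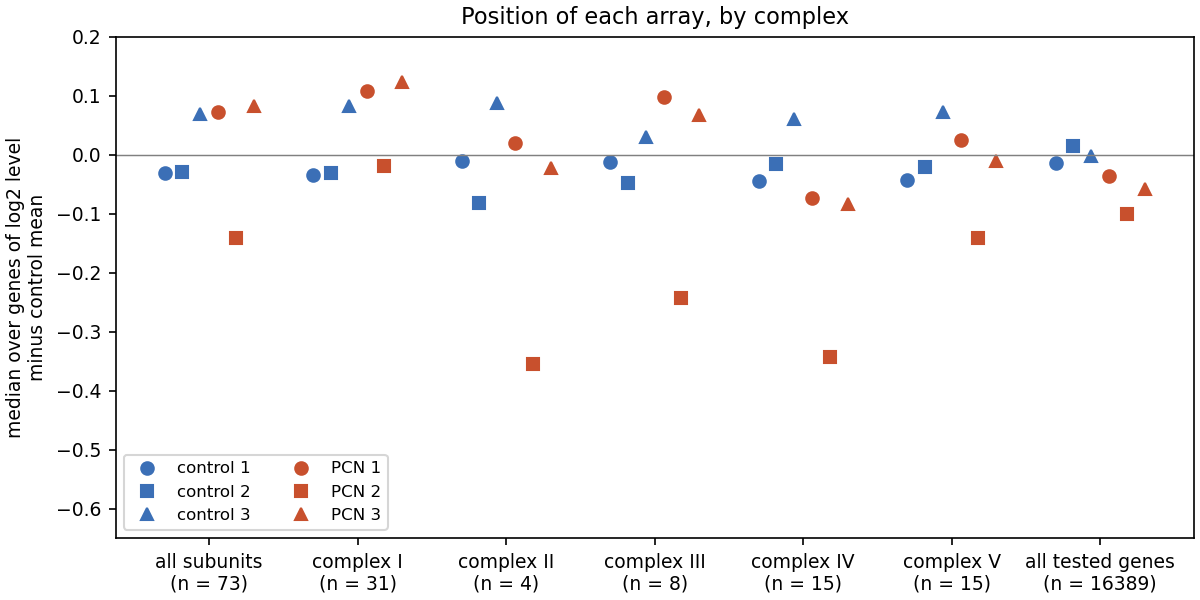
Median over genes of the log2 level minus the control mean, for each of the 6 arrays, for all 73 members, each complex and all 16389 tested genes. PCN array 2 is the lowest array for complexes II (-0.36), III (-0.24), IV (-0.34) and V (-0.14), while PCN arrays 1 and 3 lie above the controls in complexes I and III.

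Genes around the respiratory chain were also counted. The share that passed ran from 9.76% to 16.7% over these lists, against 19.9% of all tested genes and 14.1% of the brighter genes. Of all tested genes, 15.5% fell and 4.37% rose. Of 41 tested assembly factors and cytochrome c genes, 1 fell and 3 rose (median 0.03). Those that rose were Ecsit (0.51, SE 0.09) and Ndufaf1 (0.50, SE 0.09), assembly factors of complex I, and Coa7 (0.48, SE 0.11), of complex IV. All 3 calls ended under scaling to spike-in controls, at 0.23, 0.22 and 0.20 (adjusted p from 0.22 to 0.24). Cycs, cytochrome c itself, gave -0.16 (SE 0.10, adjusted p = 0.29). Of 23 genes of the tricarboxylic acid cycle, 2 fell and 1 rose (median 0.01). Ogdh and Idh3a, of 2-oxoglutarate and isocitrate dehydrogenase, fell by 0.67 (SE 0.14) and 0.54 (SE 0.12), and the call was lost in 3 of 18 alternatives for Ogdh and in 10 for Idh3a, which was -0.23 with normexp background correction.

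Among 24 tested regulators of mitochondrial biogenesis 2 fell and 2 rose (median 0.10). Ppargc1a, the coactivator of respiratory genes, was dim at -4.24, -2.46 and -3.49 in controls and -5.15, -4.83 and -5.08 with PCN. It fell by 1.62 (SE 0.41, adjusted p = 0.037), with a wide spread among controls, and the call was lost in 9 of 18 alternatives, 4 of them without 1 array. With normexp background correction its log2 fold change was -0.48 (adjusted p = 0.18), and the call also ended with quantile normalization, cyclic loess, the deposited table and no filter on dim probes. Polg, the mitochondrial DNA polymerase, rose by 0.81 (SE 0.13), or 0.53 on the spike-in scale (adjusted p = 0.051), and Twnk, the helicase of mitochondrial DNA, fell by 0.53 (SE 0.14). The call on Twnk was lost in 9 of 18 alternatives, and the mean of its probes gave -0.18 (adjusted p = 0.38). Among the factors whose motifs are listed above, Nrf1 (0.16, SE 0.16), Gabpa (0.21, SE 0.10), Esrra (-0.25, SE 0.09) and Yy1 (0.09, SE 0.09) did not pass. The groups did not overlap for Gabpa, with PCN above (adjusted p = 0.20 in limma's test), and Esrra, with PCN below (0.093). Esrrb and Esrrg were on the array but not tested.

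Mitochondrial ribosomal proteins, which translate the subunits encoded in mitochondrial DNA, had 2 of 66 lower and 6 higher (median 0.15). Mrpl10 fell by 0.76 (SE 0.10) and Mrps15 by 0.69 (SE 0.19), while Mrpl1 rose by 0.57 (SE 0.15). The mean of the probes of Mrpl10 gave a fall of 0.31 (adjusted p = 0.049), so its probes differ in size. Of 36 genes of protein import, inner membrane structure and carriers, 1 fell and 3 rose (median 0.06). The channel relative Tomm40l and the import chaperone Timm10b rose by 0.70 (SE 0.09) and 0.66 (SE 0.11), and Slc25a3, the phosphate carrier that supplies ATP synthase, fell by 0.42 (SE 0.10). The rise of Timm10b was 0.39 on the spike-in scale (adjusted p = 0.086), and that of Tomm40l was 0.33 with normexp background correction (adjusted p = 0.060). Of 26 genes of coenzyme Q synthesis, of other enzymes that reduce it and of antioxidant defence, 2 fell and 2 rose (median 0.02). Prodh, proline dehydrogenase, fell by 1.22 (SE 0.32), Gpd2, glycerol-3-phosphate dehydrogenase, fell by 0.90 (SE 0.19), and Sqor, sulphide quinone oxidoreductase, rose by 0.64 (SE 0.14). The calls on Coa7, Mrpl1, Mrps15 and Prodh were each kept in 1 of the 6 analyses that left out 1 array, those on Slc25a3 and Sqor in 2 and that on Gpd2 in 3. On the spike-in scale the calls on Mrpl1 (0.30) and Sqor (0.36) ended too, and under scaling to the array median those on Mrps15 (-0.49) and Slc25a3 (-0.21). The shifts given above for other scalings apply to these medians as well, and differences between these lists and the subunits were not tested.

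**Figure D4:**
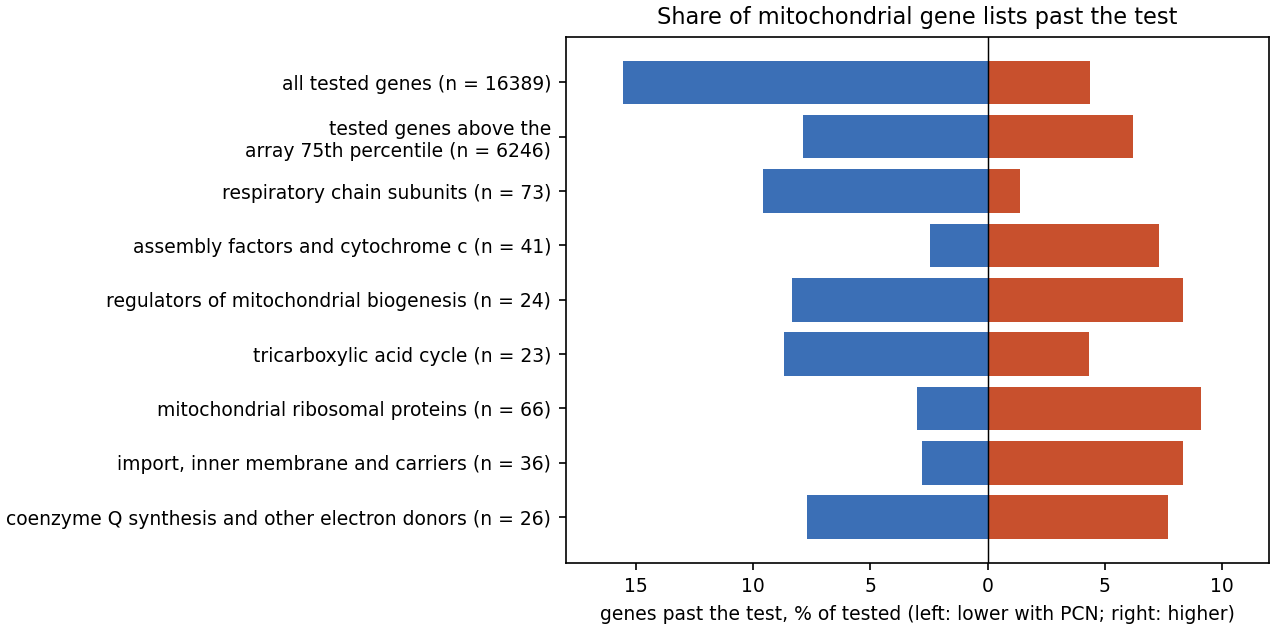
Share of tested genes past the test in each list, in percent, lower with PCN to the left and higher to the right, with the number tested. The subunits (9.59% lower) stand to the left of 0 more than to the right, as do all tested genes (15.5% lower, 4.37% higher), whereas the ribosomal proteins, 2 lower and 6 higher of 66, lean to the right.

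Markers of other liver cells were counted on the same fit. None of 11 Kupffer cell and macrophage markers passed limma's test. All 11 had a log2 fold change below 0 (median -0.39), and 3 had an unadjusted p under 0.05. Of all 16389 tested genes, 9447 had a log2 fold change below 0 and 5653 an unadjusted p under 0.05. None of 4 cholangiocyte, 3 B cell or 5 red blood cell markers passed, with 1, 1 and 0 at an unadjusted p under 0.05. Of 5 endothelial markers Cdh5 fell by 0.49 (SE 0.14), a call lost in 12 of 18 alternatives and in each of the 6 that left out 1 array. Of 4 T cell markers 2 fell, and of 5 neutrophil markers 1 fell, against 15.5% of all tested genes. Only 2 of the 4 T cell markers were well above background on all 6 arrays. The others met the filter in 1 group only, so a call on them cannot be told from an effect of the filter. The summed T cell signal was 0.54 to 0.68 in controls and 0.40 to 0.49 with PCN, in units of the array 75th percentile. Summed hepatocyte signal was 2269 to 2378 in controls and 2098 to 2639 with PCN, in units of the array 75th percentile, with a median log2 fold change of 0.02.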

How the data were processed

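Liver RNA of 3 control and 3 PCN rats was measured on 6 arrays of 1 colour. The deposited intensity values were made by the scanner software Feature Extraction, version 10.7.3.1 per the file headers; the processed signal is background-subtracted within an array and not scaled between arrays. The authors also deposited processed values, which, set against the scanner files, are a linear ratio of signal to the array 75th percentile. The array design names the build rn4, and gene names came from the RefSeq assembly GRCr8, so no gene coordinates beyond those of promoters are given.

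Control and outlier spots were left out, log2 processed signal was scaled to the 75th percentile, spots of 1 probe were averaged, and a probe had to exceed background clearly on each of the 3 arrays of a group, control or PCN, to be kept (18329 probes). A gene was represented by its brightest tested probe. PCN was set against control in a single limma 3.58.1 model (lmFit and eBayes, two-sided, without covariates) run in R 4.3.3 (tables were handled by data.table, version 1.17.8), and p was adjusted by Benjamini-Hochberg over all 16389 genes and features. A subunit and a listed gene are not reported here, though they stay in the counts. The script was tested on simulated data. Precision is limited by the 3 arrays a group. The members and lists were chosen with earlier results of these data known. Genes named were, for each complex, up to 6 members past the threshold in each direction, the 2 brightest others, all of Sdha to Sdhd, tissue isoforms, Atp5if1 and core subunits of complex I, any member at background or with opposed probes, and up to 3 changed genes of each list; others are named for their role or, as markers, to show other cells. The 18 alternatives were scaling (quantile, median, cyclic loess, spike-in controls), normexp background correction with offset 50, the deposited table with a pseudocount of 0.01, the filter on dim probes, outlier spots, the probe for a gene, the replicate number as a block, the variance prior and leaving out each of the 6 arrays. The normexp correction used the median signal of a spot, in place of the mean signal planned, because the columns used here hold medians.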

Additional observations from a re-analysis of the deposited data

How the results depend on the processing

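Over 18 alternatives, no result changed its direction past the threshold. The 7 lower and 1 higher members became 5 and 13 under median scaling, which moved the members' median from 0.01 to 0.22, and 19 and 0 under spike-in scaling, which moved it to -0.27. On the spike-in scale Atp5if1 had an adjusted p of 0.18 in limma. An intensity trend with robust variances gave 3 higher members, Ndufa6, Ndufb3 (named after its values were seen) and Atp5if1. No filter on dim probes gave 3 lower members, with 26902 genes tested. The number of lower members was 3 to 5 when 1 array was left out, the fewest without PCN array 3, and 4 without control array 1, 2 or 3 or PCN array 2. With the replicate number as a block, 4 members fell and 1 rose, and the block costs residual degrees of freedom. Same-numbered arrays deviated from their group means with correlations of -0.10, -0.03 and -0.05. These show no shared deviation over the tested genes, but cannot exclude a pairing that affects few genes. The other settings (quantile, cyclic loess, normexp, deposited table, 6-array filter, outlier spots kept, probe mean) gave 7 lower and 1 higher. Over all genes, the share of calls that were lower was 78.1% in the main analysis, 41% under median scaling, 55.4% after quantile normalization, 64.4% after normexp, 65% after cyclic loess and 96.9% under spike-in scaling. For single named members, 555 of the alternative values kept their side of the threshold, 28 lost it and 11 gained it. Most of these values belong to members that did not pass in the main analysis, which had no call to lose. All losses were in the 8 members that passed, where Cox5a kept its call least often, in 9 of 18 alternatives. With 3 arrays a group, a difference of the size of an SE cannot be told from none.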
